A study of Mus musculus with 70 samples.

Results

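Monocyte-derived dendritic cells (moDC) were compared with conventional dendritic cells of type 2 (cDC2) from the spleen of B6g7 mice, with 6 libraries of each cell type. These 12 libraries are 12 of the 70 of the series and were chosen by the cell type and strain in their labels, not by any measured value. B6g7 is the C57BL/6 strain with the g7 MHC haplotype of NOD mice, and the series set it against NOD. All 12 libraries came from mice aged 8 to 10 weeks that received PBS into the peritoneal cavity and were killed 5 h later. The moDC libraries were made from 1091 to 3292 sorted cells and the cDC2 libraries from 2000 or 5000. The deposited count table heads the moDC columns with "MHCII" and the cDC2 columns with "33D1", an antibody against the product of Clec4a4, and the sources used here give no further detail of the gates. The labels do not say whether the 6 libraries of a group came from separate mice, so the p-values measure the spread between libraries, which may be technical.

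Monocyte-derived dendritic cells arise when monocytes leave the blood and take up antigen presentation, and they depend on the growth factor receptor Csf1r and often on the chemokine receptor Ccr2. Conventional type 2 cells descend from bone marrow precursors under Flt3 ligand and in the spleen need Irf4, Relb, Notch2 signalling and the lymphotoxin receptor, and they present antigen on MHC class II to CD4+ T cells. Both cell types share Itgax (CD11c) and MHC class II, so the gene programmes behind them are used to tell one from the other.

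The libraries held 14255022 to 17724803 expected counts in moDC and 13665970 to 17439634 in cDC2, and the top 10 genes of a library held 11.9% to 18.1% of its counts in moDC and 9.33% to 16% in cDC2. Libraries 1 to 3 of each group carry the sort date 10.26.2015 and libraries 4 to 6 the date 01.05.2016. The libraries separated first by this date. The first principal component, 66.9% of the variance, divided the dates, and the second, 21.1%, divided moDC from cDC2. Over both cell types 8300 of 12017 tested genes (69.1%) differed between the dates, so the date was a term of the model and changes within each date are given beside the pooled ones. The RNA integrity number was 7.2 in moDC library 6, 6.8 and 3.9 in cDC2 libraries 5 and 6, and at least 8.3 in the others.

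**Figure D1:**
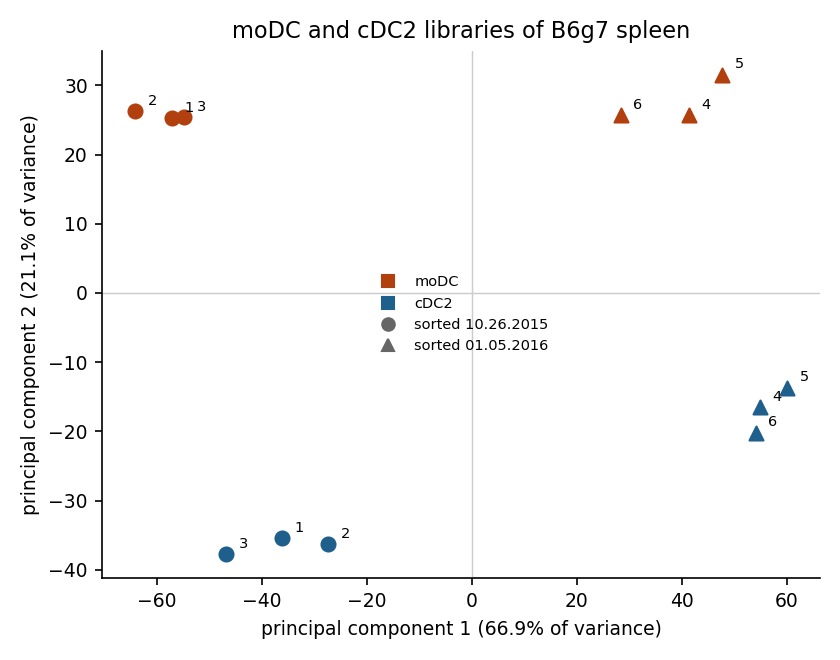
Principal components of log2 CPM for the 12 libraries, with the share of variance on each axis, moDC in orange and cDC2 in blue, circles for 10.26.2015, triangles for 01.05.2016, and the library number beside each point. Component 1 (66.9%) separates the dates and component 2 (21.1%) separates moDC, all above 0, from cDC2, all below 0.

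The 3 marker genes of the comparison gave a mixed picture. Csf1r, the receptor for macrophage colony-stimulating factor, ranged from 504 to 1216 CPM in moDC (median 797), against 68.6 to 259 CPM in cDC2 (median 121), where CPM are counts scaled to the size of the library. All 6 moDC libraries lay above all 6 cDC2 libraries (log2 change 2.58, SE 0.13, adjusted p = 9.8e-12, edgeR quasi-likelihood test with Benjamini-Hochberg adjustment, as for all adjusted p-values here). The change was 2.86 on 10.26.2015 and 2.31 on 01.05.2016. Ly6c2, the surface antigen of classical monocytes, was 50.8, 37.3 and 26.1 CPM in moDC libraries 1 to 3 and 8.63, 6.31 and 4.47 CPM in libraries 4 to 6, against 0.339 to 8.83 CPM in cDC2. The groups overlapped and the change did not pass the test (log2 change 2.34, SE 0.80, adjusted p = 0.051), although it passed without cDC2 library 5, which had 5.78 CPM (adjusted p = 0.0013). In the fit of 23 libraries that also holds NOD, the B6g7 change was 2.23 and passed (adjusted p = 0.024). The call of Ly6c2 therefore depends on the fit. Clec4a4, the lectin recognised by 33D1 and therefore tied to the cDC2 gate, ranged from 69.2 to 194 CPM in moDC (median 124), against 129 to 573 CPM in cDC2 (median 303). It fell (log2 change -1.17, SE 0.13, adjusted p = 1.4e-06), with a log2 change of -1.52 on 10.26.2015 and -0.81 on 01.05.2016. The groups overlapped across the dates but not within either date, and both cell types were higher on 10.26.2015.

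Of 12017 genes tested, 3820 (31.8%) passed the test, 2266 (18.9%) higher and 1554 (12.9%) lower in moDC. Of these, 957 (7.96% of the genes tested) also showed no overlap between the 6 and 6 libraries. Without scaling factors between libraries the split was 1367 higher and 3645 lower and the median over all genes moved from 0.00 to -0.25, so every change below is relative to the typical gene under scaling. The counts of the gene lists below stand against the shares of 18.9% higher and 12.9% lower over all genes tested. With each date fitted alone, 1721 genes in all rose and 1080 fell on 10.26.2015, and 1560 rose and 1344 fell on 01.05.2016. In bulk RNA, fewer cells of a type within a sort and less RNA per cell cannot be told apart.

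The 12 largest rises in moDC without overlap between the libraries included receptors of monocyte traffic, lipid-handling genes and a lectin. S1pr5, a sphingosine 1-phosphate receptor that guides the exit of NK cells and patrolling monocytes from tissue, ranged from 25.4 to 77.1 CPM in moDC (median 56.7) and had no count in any cDC2 library. Against the limit of 3 counts over the cDC2 group, it was at least 2006-fold higher in moDC (adjusted p = 2.1e-09). Ccr2, the receptor that brings monocytes out of the bone marrow, ranged from 115 to 325 CPM in moDC (median 193), against 0.354 to 2.92 CPM in cDC2 (median 1.68). Ccr2 had a log2 change of 6.85 (SE 0.33, adjusted p = 1.2e-08). The lowest moDC library stood far above the highest cDC2 library for both genes. Fabp4, a fatty acid carrier of macrophages, ranged from 13.1 to 312 CPM in moDC (median 122), against 0 to 0.442 CPM in cDC2 (median 0.307; log2 change 8.46, SE 0.64, adjusted p = 4.1e-06), and Apoc2, the cofactor of lipoprotein lipase, from 27 to 622 CPM in moDC (median 197), against 0 to 1.13 CPM in cDC2 (median 0.365; log2 change 8.25, SE 0.78, adjusted p = 3.1e-05). For both, moDC libraries 1 to 3 were higher than libraries 4 to 6, yet all 6 exceeded cDC2. Clec4e (Mincle), a lectin that senses mycobacterial glycolipids, ranged from 4.73 to 73 CPM in moDC (median 22.2), against 0 to 0.211 CPM in cDC2 (median 0). Clec4e had a log2 change of 8.43 (SE 0.68, adjusted p = 9.9e-07). Sizes after "rose by" are log2 changes throughout. Lyz1, a lysozyme, rose by 7.08 (SE 0.46, adjusted p = 1.2e-06), Alox5, the first enzyme of leukotriene synthesis, by 6.77 (SE 0.55, adjusted p = 9.0e-08), Tppp3, a tubulin-binding protein, by 6.08 (SE 0.26, adjusted p = 2.6e-10) and Galnt9, a glycosyltransferase, by 6.64 (SE 0.67, adjusted p = 1.3e-06). G0s2, an inhibitor of the lipase that empties lipid droplets, rose by 9.14 (SE 0.71, adjusted p = 1.3e-06), and Hp (haptoglobin), which binds free haemoglobin, by 6.28 (SE 0.71, adjusted p = 8.1e-05). Ccl17, a chemokine that attracts T cells through Ccr4, averaged 10.6 ± 14.3 CPM in moDC and 0.0518 ± 0.127 CPM in cDC2 and was above 20 CPM in 2 moDC libraries only (log2 change 7.33, SE 0.83, adjusted p = 5.6e-06).

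**Figure D2:**
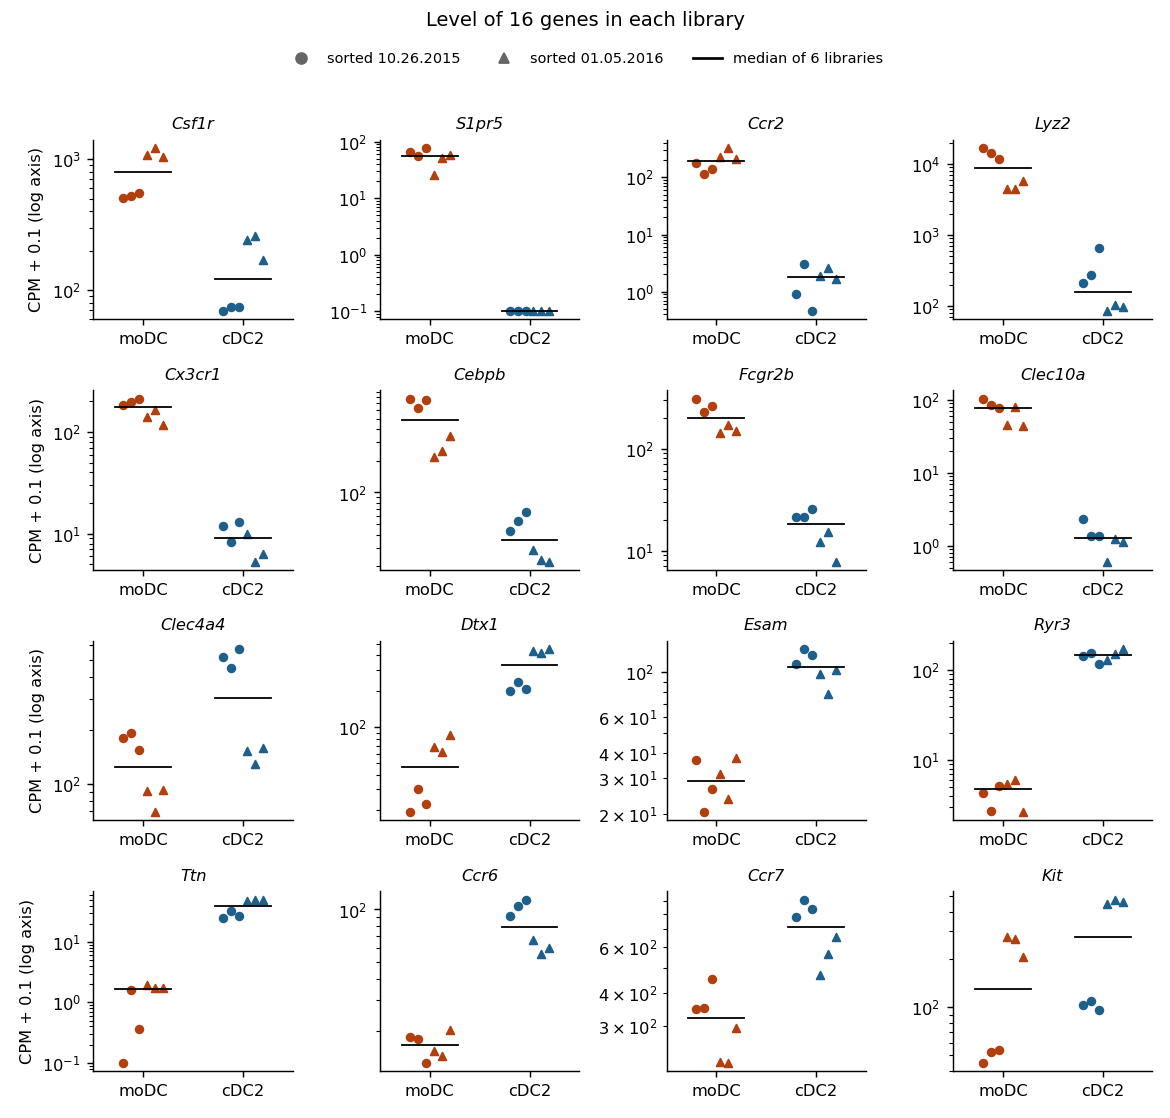
Level of 16 genes in each library as CPM plus 0.1 on a log axis, moDC in orange on the left and cDC2 in blue on the right, circles for 10.26.2015, triangles for 01.05.2016 and a bar at the median of 6 libraries. S1pr5 lies at 0 CPM in all cDC2 libraries, and Clec4a4 and Kit overlap between the cell types across dates while separating within each date.

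The 12 largest falls in moDC without overlap included genes of calcium handling, growth factors and a lymphotoxin. Ryr3, an intracellular calcium release channel, ranged from 2.53 to 5.84 CPM in moDC (median 4.65), against 116 to 171 CPM in cDC2 (median 146; log2 change -5.07, SE 0.19, adjusted p = 2.5e-12), and the 2 sort dates gave nearly the same change, -5.10 on 10.26.2015 and -5.04 on 01.05.2016. Ttn, which encodes the giant muscle protein titin, ranged from 0 to 1.85 CPM in moDC (median 1.57), against 25.2 to 50.4 CPM in cDC2 (median 39.8). Ttn had a log2 change of -5.10 (SE 0.31, adjusted p = 2.7e-09). Both genes separated the 6 moDC from the 6 cDC2 libraries by a wide margin. Bmp2, a bone morphogenetic protein, fell (log2 change -4.01, SE 0.44, adjusted p = 1.1e-05), as did Ncald, a neuronal calcium sensor (log2 change -4.03, SE 0.40, adjusted p = 1.7e-06). Igsf3, an immunoglobulin superfamily membrane protein, fell too (log2 change -3.95, SE 0.31, adjusted p = 7.4e-09). Tcf7, the Wnt pathway transcription factor known best from T cells, ranged from 1.4 to 12 CPM in moDC (median 4.34), against 21.7 to 94.4 CPM in cDC2 (median 53.1). Tcf7 had a log2 change of -3.45 (SE 0.21, adjusted p = 7.0e-10). The log2 change was -3.21 for Mdk (midkine, a heparin-binding growth factor), -3.15 for Cdkn2b (an inhibitor of cyclin D kinases), -3.26 for Crispld2 (a secreted glycoprotein), -3.34 for Pla2g4f (a cytosolic phospholipase A2) and -3.06 for Tmem132c, and all 5 fell. Lta, which encodes lymphotoxin alpha, fell (log2 change -3.01, SE 0.38, adjusted p = 1.4e-05).

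The promoters of S1pr5 and Lyz2, both high in moDC, and of Dtx1, high in cDC2, are shown because these genes separated the libraries of the cell types without overlap. S1pr5 comes from the largest rises, Lyz2 from the monocyte and macrophage list and Dtx1 from the cDC2 list. Each stretch runs 5′ to 3′ from 250 bases before to 50 bases after the annotated gene start in RefSeq (GRCm38.p6), and capitals mark matches on either strand to TTGCNNAA (C/EBP), GAGGAA (PU.1) or TGGGAA (Rbpj, the DNA-binding partner of Notch).
S1pr5: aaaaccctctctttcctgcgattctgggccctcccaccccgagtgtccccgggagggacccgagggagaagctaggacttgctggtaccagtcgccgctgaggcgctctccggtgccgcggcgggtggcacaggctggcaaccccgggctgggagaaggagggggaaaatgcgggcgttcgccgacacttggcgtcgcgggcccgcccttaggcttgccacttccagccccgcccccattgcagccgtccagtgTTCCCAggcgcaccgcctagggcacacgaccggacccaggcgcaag
Lyz2: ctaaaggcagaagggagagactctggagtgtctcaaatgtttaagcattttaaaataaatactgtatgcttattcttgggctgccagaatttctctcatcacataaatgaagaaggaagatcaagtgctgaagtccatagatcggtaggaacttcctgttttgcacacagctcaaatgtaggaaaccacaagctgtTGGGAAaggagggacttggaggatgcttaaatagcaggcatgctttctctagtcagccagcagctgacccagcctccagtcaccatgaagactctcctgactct
Dtx1: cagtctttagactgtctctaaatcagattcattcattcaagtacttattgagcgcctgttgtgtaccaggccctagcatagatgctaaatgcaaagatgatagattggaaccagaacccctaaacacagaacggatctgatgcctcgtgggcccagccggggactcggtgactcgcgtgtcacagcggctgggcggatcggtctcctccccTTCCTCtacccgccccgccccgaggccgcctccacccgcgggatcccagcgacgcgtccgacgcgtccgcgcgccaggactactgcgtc
S1pr5 lies at chr9:21248394-21248693, minus strand, Lyz2 at chr10:117282223-117282522, minus strand and Dtx1 at chr5:120711620-120711919, minus strand. S1pr5 and Lyz2 held 1 match each to TGGGAA or its reverse complement and Dtx1 held 1 match to GAGGAA, with no base in more than 1 match. Over all 32851 promoters of this length, 10.8% held TTGCNNAA, 28.3% GAGGAA and 25.6% TGGGAA. Among the 1804 promoters of genes higher in moDC the shares were 9.37%, 29.2% and 23.3%, and among the 1221 of genes lower in moDC they were 7.53%, 28.2% and 21%. Over the 9646 promoters of tested genes they were 8.36%, 27% and 22.4%. A match is a run of letters and not a measured binding site.

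Most monocyte and macrophage identity genes rose. In the list, 22 of 27 tested members rose and 1 fell, with a median log2 change of 2.07. The libraries of 10.26.2015 alone gave 20 rises and 1 fall, and those of 01.05.2016 alone 21 and 1. Lyz2, the lysozyme of phagocytes, ranged from 4441 to 16728 CPM in moDC (median 8681), against 84.6 to 658 CPM in cDC2 (median 158). Lyz2 had a log2 change of 5.46 (SE 0.29, adjusted p = 2.6e-08). Cx3cr1, the fractalkine receptor that marks patrolling monocytes, ranged from 116 to 213 CPM in moDC (median 174), against 5.19 to 13 CPM in cDC2 (median 8.95). Cx3cr1 had a log2 change of 4.25 (SE 0.16, adjusted p = 8.7e-13). Ace, which encodes angiotensin-converting enzyme, ranged from 120 to 198 CPM in moDC (median 145), against 1.12 to 4.13 CPM in cDC2 (median 2.12). Ace had a log2 change of 6.07 (SE 0.23, adjusted p = 1.2e-11). None of these 3 genes overlapped between the cell types. Spn (CD43) rose by 2.80 (SE 0.22, adjusted p = 2.3e-07) and Treml4, a receptor of nonclassical monocytes and of dendritic cells, by 1.66 (SE 0.15, adjusted p = 9.7e-08). Adgre1 (F4/80) rose by 0.42 (SE 0.09, adjusted p = 0.0016), a call not made without scaling factors (adjusted p = 0.14), and Cd68, an endosomal glycoprotein, by 0.63 (SE 0.09, adjusted p = 3.0e-05). The member that fell was Nr4a1, the nuclear receptor needed for nonclassical monocytes, at 673 ± 136 CPM in moDC and 948 ± 188 CPM in cDC2 (SD, n = 6 each, as for all such values here; log2 change -0.49, SE 0.10, adjusted p = 9.9e-04). Mertk, the efferocytosis receptor used to define macrophages, averaged 2.88 CPM in moDC and 3.6 CPM in cDC2 and did not pass the test (adjusted p = 0.95).

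The cDC2 identity list went the other way. Of it, 2 of 16 tested members rose and 11 fell, with a median log2 change of -0.95. Within 10.26.2015 there were 2 rises and 10 falls, and within 01.05.2016 2 and 11. Dtx1, a Notch target and E3 ligase, ranged from 19.2 to 85.1 CPM in moDC (median 46.3), against 202 to 453 CPM in cDC2 (median 331). Dtx1 had a log2 change of -2.88 (SE 0.14, adjusted p = 5.9e-12). Esam, the adhesion molecule of Notch2-dependent splenic cDC2, ranged from 20.3 to 37.6 CPM in moDC (median 28.9), against 78 to 130 CPM in cDC2 (median 107). Esam had a log2 change of -1.85 (SE 0.16, adjusted p = 4.4e-08). Ccr6, the receptor for Ccl20, ranged from 13 to 20.2 CPM in moDC (median 16.6), against 55.6 to 114 CPM in cDC2 (median 79). Ccr6 had a log2 change of -2.25 (SE 0.15, adjusted p = 1.3e-09). The moDC libraries were below the cDC2 libraries without overlap for all 3. Tbx21 (T-bet) fell (log2 change -1.62, SE 0.16, adjusted p = 2.1e-07), as did Cd7 (log2 change -1.32, SE 0.12, adjusted p = 7.8e-08), Kit (log2 change -0.95, SE 0.09, adjusted p = 2.1e-07) and Cd4 (log2 change -0.41, SE 0.09, adjusted p = 0.0013). The exceptions were lectins of the list. Cd209a, a mouse homologue of DC-SIGN, ranged from 399 to 1384 CPM in moDC (median 890), against 117 to 378 CPM in cDC2 (median 208; log2 change 2.02, SE 0.11, adjusted p = 5.1e-11), with the same change on both dates (2.02 on 10.26.2015 and 2.02 on 01.05.2016), and Mgl2 rose by 5.46 (SE 0.71, adjusted p = 1.9e-04). Notch2 itself averaged 116 CPM in moDC and 129 CPM in cDC2 and Rbpj 85.3 CPM in moDC and 72.3 CPM in cDC2, and neither passed the test (adjusted p = 0.91 and 0.089).

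Among genes shared by conventional dendritic cells the changes were smaller in size. In that list, 1 of 12 tested members rose and 7 fell, with a median log2 change of -0.43. By date, 0 rose and 6 fell on 10.26.2015, and 0 rose and 5 fell on 01.05.2016. Ccr7, which guides migration to T cell zones, ranged from 216 to 454 CPM in moDC (median 321), against 467 to 911 CPM in cDC2 (median 718). Ccr7 had a log2 change of -1.17 (SE 0.11, adjusted p = 1.2e-07). Zbtb46, the transcription factor that marks conventional dendritic cells, averaged 71.6 ± 28.3 CPM in moDC and 124 ± 45.8 CPM in cDC2 (log2 change -0.81, SE 0.09, adjusted p = 1.8e-06), and Relb, the NF-kB subunit that cDC2 require, 265 ± 64.6 CPM in moDC and 420 ± 65.1 CPM in cDC2 (log2 change -0.68, SE 0.09, adjusted p = 8.5e-06). Flt3, the receptor of their growth factor, averaged 385 ± 103 CPM in moDC and 410 ± 56 CPM in cDC2 and Itgax 523 ± 214 CPM in moDC and 560 ± 255 CPM in cDC2. Neither of these 2 genes passed the test (adjusted p = 0.4 and 0.64).

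Set beside the Ly6C+ monocytes of the same strain, the moDC means lay between those of monocytes and cDC2 for several of these genes. With all 24 B6g7 libraries scaled together, Lyz2 averaged 9022 ± 4990 CPM in moDC, 50535 ± 5451 CPM in monocytes and 231 ± 209 CPM in cDC2. Ccr2 averaged 189 ± 72.7 CPM in moDC, 1809 ± 306 CPM in monocytes and 1.62 ± 0.948 CPM in cDC2, and Cebpb, a myeloid transcription factor, 467 ± 236 CPM in moDC, 2293 ± 192 CPM in monocytes and 38.1 ± 16.8 CPM in cDC2. Ly6c2 averaged 21 ± 17.8 CPM in moDC, 1948 ± 205 CPM in monocytes and 3.23 ± 3.48 CPM in cDC2, with the moDC level nearer to that of cDC2. H2-Ab1, a chain of MHC class II, averaged 15710 ± 2605 CPM in moDC, 232 ± 72.3 CPM in monocytes and 13393 ± 5071 CPM in cDC2, and Zbtb46 68.3 ± 27.9 CPM in moDC, 2.5 ± 0.786 CPM in monocytes and 122 ± 46.4 CPM in cDC2. For both genes the moDC mean was nearer to that of cDC2 than to that of monocytes. The count columns are headed "MHCII" for moDC and "Ly6C+" for monocytes. H2-Ab1 and Ly6c2 are therefore tied to these gates and do not place the moDC independently of the sort. Esam averaged 27.9 ± 6.87 CPM in moDC, 0.306 ± 0.277 CPM in monocytes and 104 ± 17.1 CPM in cDC2, and Dtx1 45.7 ± 26.6 CPM in moDC, 0.9 ± 0.92 CPM in monocytes and 321 ± 123 CPM in cDC2. Monocytes are 3 libraries of 01.05.2016 only, and no test between moDC and monocytes was made here.

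Transcription factors of myeloid lineages moved in both directions, and 17 of 45 tested members rose and 14 fell, with a median log2 change of 0.31. Cebpb ranged from 216 to 772 CPM in moDC (median 489), against 22 to 65.3 CPM in cDC2 (median 35.7). Cebpb had a log2 change of 3.60 (SE 0.14, adjusted p = 5.5e-13). Irf8, a factor of monocytes and of cDC1, ranged from 105 to 175 CPM in moDC (median 131), against 14.9 to 30.1 CPM in cDC2 (median 21.5). Irf8 had a log2 change of 2.60 (SE 0.12, adjusted p = 2.5e-12). Both separated the groups without overlap and changed alike on the 2 dates, Cebpb by 3.74 on 10.26.2015 and 3.46 on 01.05.2016 and Irf8 by 2.55 on 10.26.2015 and 2.64 on 01.05.2016. Pparg, a lipid-sensing nuclear receptor, rose by 3.07 (SE 0.25, adjusted p = 2.4e-08), Id3 by 3.53 (SE 0.33, adjusted p = 8.1e-07) and Zeb2 by 1.27 (SE 0.10, adjusted p = 6.3e-09). Irf4, required by cDC2, ranged from 24.8 to 86.1 CPM in moDC (median 46.2), against 84.5 to 93.5 CPM in cDC2 (median 90.5; log2 change -0.94, SE 0.20, adjusted p = 0.0026), and its fall was unequal between the dates, -1.52 on 10.26.2015 and -0.39 on 01.05.2016 (adjusted p of the difference = 0.027). Id2 fell (log2 change -0.86, SE 0.10, adjusted p = 2.1e-06), as did Zeb1 (log2 change -1.01, SE 0.13, adjusted p = 8.2e-06). Egr2, an early response factor, ranged from 49.8 to 77.8 CPM in moDC (median 61.8), against 142 to 175 CPM in cDC2 (median 149). Egr2 had a log2 change of -1.29 (SE 0.11, adjusted p = 2.7e-08). Spi1, which encodes PU.1, averaged 555 ± 77.7 CPM in moDC and 566 ± 155 CPM in cDC2 and did not pass the test (adjusted p = 0.99).

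**Figure D3:**
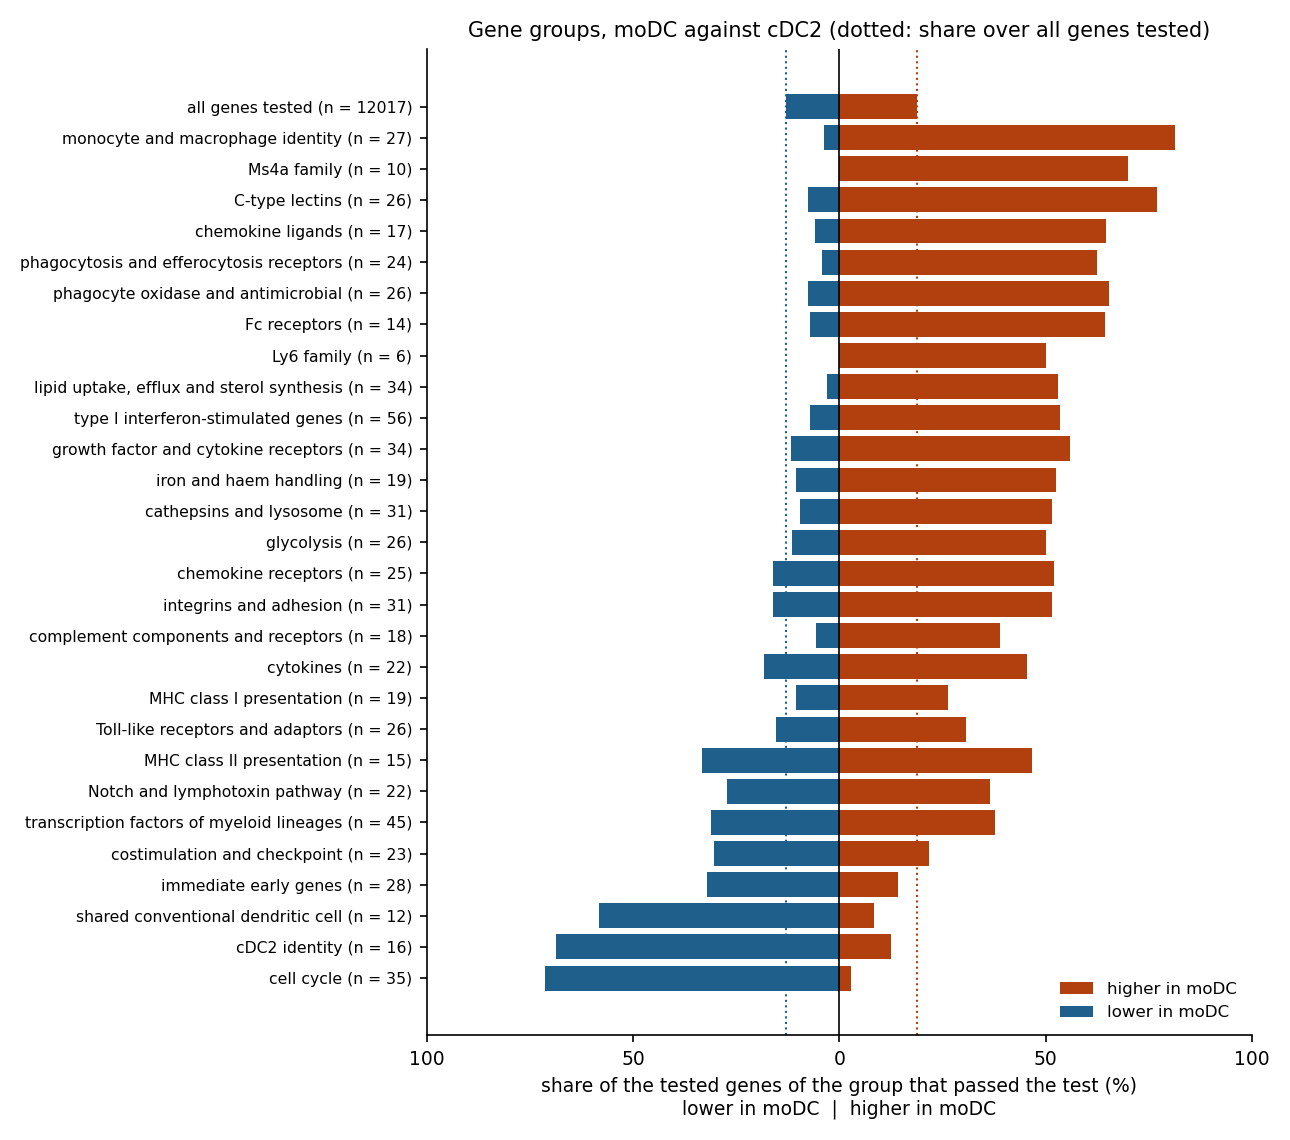
Share of the tested genes of each gene group that passed the test, higher in moDC to the right in orange and lower in moDC to the left in blue, with the number of tested genes in brackets and dotted lines at the shares over all genes tested (18.9% higher, 12.9% lower). Monocyte and macrophage identity genes and C-type lectins have the largest shares higher in moDC among the groups plotted, and cell cycle and cDC2 identity genes the largest shares lower.

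Genes of MHC class II presentation split within the pathway. In this list, 7 of 15 tested members rose and 5 fell, with a median log2 change of 0.28. The classical chains and the invariant chain were slightly higher in moDC: H2-Ab1 averaged 16571 ± 2952 CPM in moDC and 13776 ± 5410 CPM in cDC2 (log2 change 0.34, SE 0.12, adjusted p = 0.033) and Cd74 39697 ± 2937 CPM in moDC and 33052 ± 9209 CPM in cDC2 (log2 change 0.31, SE 0.12, adjusted p = 0.049). Both rises passed only narrowly, and the level of these chains in moDC is tied to a gate headed "MHCII". The log2 change of H2-Ab1 was 0.05 on 10.26.2015 and 0.63 on 01.05.2016 and that of Cd74 0.01 on 10.26.2015 and 0.60 on 01.05.2016, neither call was made without scaling factors (adjusted p = 0.56 and 0.72), and without the 3 libraries of low RNA integrity 2 rose and 5 fell. The 2 members that then still rose were Ctss (cathepsin S), which trims the invariant chain, at 2815 ± 933 CPM in moDC and 1591 ± 704 CPM in cDC2 (log2 change 0.88, SE 0.10, adjusted p = 8.1e-07), and Lgmn, an endopeptidase of lysosomes (log2 change 0.78, SE 0.10, adjusted p = 5.4e-06). The chains of H2-O, which restrains peptide loading, fell. H2-Ob ranged from 191 to 309 CPM in moDC (median 244), against 374 to 468 CPM in cDC2 (median 444; log2 change -0.83, SE 0.11, adjusted p = 4.6e-06), and H2-Oa averaged 385 ± 82.2 CPM in moDC and 597 ± 223 CPM in cDC2 (log2 change -0.58, SE 0.10, adjusted p = 1.3e-04). H2-DMb2 fell (log2 change -0.57, SE 0.12, adjusted p = 7.2e-04), as did Ciita, the master regulator of the pathway (log2 change -0.49, SE 0.08, adjusted p = 1.1e-04). Reads of near-identical MHC genes may be assigned to another member, so single genes of this family are less certain. In MHC class I presentation, 5 of 19 tested members rose and 2 fell, with a median log2 change of 0.18 (2 rose and 5 fell without scaling factors, with a median of -0.07), with H2-D1 up by 0.56 (SE 0.09, adjusted p = 1.3e-04) and B2m up by 0.51 (SE 0.10, adjusted p = 4.1e-04). With scaling the class I shares were 26.3% higher and 10.5% lower, against 18.9% and 12.9% over all genes tested.

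Costimulatory and checkpoint genes moved in both directions. In the list, 5 of 23 tested members rose and 7 fell, with a median log2 change of -0.16. The shares were 21.7% higher, near the 18.9% over all genes tested, and 30.4% lower, against 12.9%. Each date on its own gave 4 rises and 4 falls on 10.26.2015, and 5 and 5 on 01.05.2016. Cd80, a ligand of CD28, ranged from 16.3 to 25.2 CPM in moDC (median 19.7), against 29.1 to 54 CPM in cDC2 (median 38.5). Cd80 had a log2 change of -0.96 (SE 0.11, adjusted p = 2.0e-06). Icosl fell (log2 change -0.81, SE 0.11, adjusted p = 6.3e-06), as did Cd83 (log2 change -0.64, SE 0.10, adjusted p = 5.2e-05) and Cd274 (PD-L1) (log2 change -0.40, SE 0.11, adjusted p = 0.0064). Tnfsf13 (APRIL), a survival factor for plasma cells, ranged from 8.03 to 57 CPM in moDC (median 31.1), against 1.14 to 5.39 CPM in cDC2 (median 1.92). Tnfsf13 had a log2 change of 3.32 (SE 0.21, adjusted p = 4.1e-10). Tnfsf13b (BAFF), a survival factor for B cells, ranged from 4.49 to 10.4 CPM in moDC (median 6.98), against 0.124 to 1.14 CPM in cDC2 (median 0.927). Tnfsf13b had a log2 change of 3.39 (SE 0.43, adjusted p = 4.9e-06). Both cytokines were higher in every moDC library than in any cDC2 library. Vsir (VISTA) rose by 0.66 (SE 0.08, adjusted p = 2.0e-06) and ranged from 221 to 248 CPM in moDC, against 142 to 158 CPM in cDC2. Cd40 averaged 127 CPM in moDC and 138 CPM in cDC2 and did not pass the test (adjusted p = 0.53).

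C-type lectins, receptors that bind sugars and lipids of microbes and of self, mostly rose. Among them 20 of 26 tested members rose and 2 fell, with a median log2 change of 1.95. Fitted alone, 10.26.2015 gave 17 rises and 1 fall, and 01.05.2016 gave 17 and 2. Clec10a ranged from 43.9 to 105 CPM in moDC (median 78.8), against 0.499 to 2.21 CPM in cDC2 (median 1.19). Clec10a had a log2 change of 5.89 (SE 0.22, adjusted p = 7.9e-13). Clec7a (Dectin-1), the receptor for fungal glucan, averaged 603 ± 151 CPM in moDC and 108 ± 72.1 CPM in cDC2 (log2 change 2.73, SE 0.22, adjusted p = 6.6e-07) and its rise was larger on 01.05.2016 (2.10 on 10.26.2015 and 3.38 on 01.05.2016). Clec12a, a receptor for uric acid crystals, rose by 3.30 (SE 0.13, adjusted p = 5.3e-13). The Clec4a genes, neighbours of similar sequence, went separate ways. Clec4a3 ranged from 275 to 1491 CPM in moDC (median 857), against 33.6 to 145 CPM in cDC2 (median 79.9; log2 change 3.25, SE 0.10, adjusted p = 4.1e-14), Clec4b1 rose by 2.67 (SE 0.14, adjusted p = 3.5e-11) and Clec4a1 by 0.98 (SE 0.10, adjusted p = 1.6e-07), Clec4a2 averaged 122 CPM in moDC and 134 CPM in cDC2 and did not pass the test (adjusted p = 0.51), and Clec4a4 was lower. Ly75 (DEC-205), an antigen uptake receptor of cDC1, fell (log2 change -1.31, SE 0.21, adjusted p = 7.8e-05). Of the CD209 genes, Cd209a, Cd209b, Cd209c and Cd209d rose without overlap between the groups, and the change of Cd209d was 4.09 (SE 0.67, adjusted p = 8.0e-04). Estimated counts divide shared reads between close paralogs such as these, and Lyz1 and Lyz2 are another such pair.

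Most Fc receptor genes rose. In the list, 9 of 14 tested members rose and 1 fell, with a median log2 change of 1.47. The libraries of 10.26.2015 alone gave 8 rises and 1 fall, and those of 01.05.2016 alone 6 and 1. Fcgr2b, the inhibitory receptor for IgG, ranged from 142 to 309 CPM in moDC (median 199), against 7.66 to 25.7 CPM in cDC2 (median 18.2). Fcgr2b had a log2 change of 3.64 (SE 0.14, adjusted p = 5.5e-13). The activating receptors Fcgr3, Fcgr4 and Fcgr1 rose by 3.13 (SE 0.19, adjusted p = 9.4e-09), 2.59 (SE 0.32, adjusted p = 9.0e-05) and 2.44 (SE 0.23, adjusted p = 1.2e-07). Fcer1g, the signalling chain that activating receptors share, ranged from 811 to 8434 CPM in moDC (median 3291), against 537 to 1983 CPM in cDC2 (median 981; log2 change 1.39, SE 0.22, adjusted p = 3.3e-04), with an unequal change of 2.05 on 10.26.2015 and 0.73 on 01.05.2016 (adjusted p of the difference = 0.0047). The moDC libraries lay above the cDC2 libraries for Fcgr1, Fcgr2b, Fcgr3 and Fcgr4 without overlap. Fcer1a, the IgE receptor chain of basophils and mast cells, was counted in moDC alone, at 137, 71.5 and 55.9 CPM in libraries 1 to 3 and 2.98, 0 and 1.26 CPM in libraries 4 to 6, and is taken up with the basophil genes. Pira2, a paired immunoglobulin-like receptor, fell (log2 change -0.72, SE 0.10, adjusted p = 7.9e-06).

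Of the Toll-like receptors and their adaptors, 8 of 26 tested members rose and 4 fell, with a median log2 change of 0.24. The shares were 30.8% and 15.4%, against 18.9% and 12.9% over all genes tested. The median was -0.01 without scaling factors. Tlr8 rose by 3.85 (SE 0.40, adjusted p = 7.8e-07), Tlr13, a sensor of bacterial ribosomal RNA, by 0.79 (SE 0.14, adjusted p = 2.6e-04) and Tlr2 by 0.87 (SE 0.10, adjusted p = 1.8e-06). Cd14, the co-receptor for lipopolysaccharide, ranged from 22.1 to 99.1 CPM in moDC (median 48.5), against 4.99 to 10.6 CPM in cDC2 (median 7.98; log2 change 2.46, SE 0.22, adjusted p = 2.8e-07) and its rise was unequal between the dates (3.10 on 10.26.2015 and 1.83 on 01.05.2016). Irak3, a brake on Toll-like receptor signalling, ranged from 17 to 23.2 CPM in moDC (median 20.2), against 0.311 to 2.14 CPM in cDC2 (median 1.17). Irak3 had a log2 change of 4.20 (SE 0.31, adjusted p = 4.7e-09). Cd180 fell (log2 change -0.82, SE 0.15, adjusted p = 2.4e-04). Tlr4, Tlr7 and Tlr9 did not pass the test (adjusted p = 0.17, 0.66 and 0.99). In the complement list, 7 of 18 tested members rose and 1 fell, with a median log2 change of 0.58. C3 rose by 4.38 (SE 0.42, adjusted p = 6.1e-06) and C5ar1, the anaphylatoxin receptor, by 4.77 (SE 0.63, adjusted p = 1.0e-04). Cfp (properdin), which stabilises the convertase, fell (log2 change -0.98, SE 0.11, adjusted p = 1.3e-06). The 3 C1q chains did not pass the test, with adjusted p = 0.45, 0.28 and 1 for C1qa, C1qb and C1qc.

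The Ms4a family, tetraspanning membrane proteins of leukocytes, had no member that fell. In it, 7 of 10 tested members rose and 0 fell, with a median log2 change of 1.24. The 7 include Ms4a2, which is taken up with the basophil genes. Ms4a4a ranged from 20.8 to 150 CPM in moDC (median 60), against 0.388 to 1.68 CPM in cDC2 (median 0.926; log2 change 5.81, SE 0.40, adjusted p = 2.9e-07), Ms4a6d rose by 3.66 (SE 0.24, adjusted p = 2.7e-09) and Ms4a7, a macrophage member, by 1.78 (SE 0.19, adjusted p = 9.3e-07), while Ms4a4c averaged 460 CPM in moDC and 449 CPM in cDC2 (adjusted p = 0.89). In the Ly6 family, 3 of 6 tested members rose and 0 fell, with a median log2 change of 2.15. Ly6a (Sca-1) averaged 93 ± 77.1 CPM in moDC and 16.6 ± 13 CPM in cDC2 (log2 change 2.26, SE 0.22, adjusted p = 1.6e-06), and Ly6i 83.6 ± 73.9 CPM in moDC and 2.03 ± 1.57 CPM in cDC2 (log2 change 5.00, SE 0.46, adjusted p = 1.2e-05).

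Chemokine receptors and ligands rose more often than they fell. In the receptor list, 13 of 25 tested members rose and 4 fell, with a median log2 change of 0.98. Within 10.26.2015 there were 11 rises and 4 falls, and within 01.05.2016 11 and 4. Beside Ccr2, Cx3cr1 and S1pr5, the leukotriene B4 receptor Ltb4r1 rose, and its levels ranged from 48.5 to 79.6 CPM in moDC (median 65.8), against 1.9 to 10.4 CPM in cDC2 (median 5.1; log2 change 3.76, SE 0.25, adjusted p = 1.3e-08), and Ccr1 rose by 2.93 (SE 0.75, adjusted p = 0.012), a call lost without the 3 libraries of low RNA integrity (adjusted p = 0.056). Beside Ccr6 and Ccr7, the oxysterol receptor Gpr183 (EBI2), which places cDC2 in the bridging channels of the spleen, fell (log2 change -0.74, SE 0.13, adjusted p = 1.8e-04). Of the ligands, 11 of 17 tested members rose and 1 fell, with a median log2 change of 1.44. By date, 11 rose and 1 fell on 10.26.2015, and 8 rose and 2 fell on 01.05.2016. Ccl6 ranged from 317 to 3104 CPM in moDC (median 1406), against 24.6 to 71.2 CPM in cDC2 (median 46; log2 change 4.55, SE 0.29, adjusted p = 2.3e-07) and Ccl9 from 265 to 1044 CPM in moDC (median 586), against 13.5 to 56.6 CPM in cDC2 (median 24.7; log2 change 4.35, SE 0.18, adjusted p = 1.3e-11). Cxcl16 rose by 1.11 (SE 0.12, adjusted p = 4.6e-07) and Cxcl9, an interferon-gamma-induced ligand of Cxcr3, by 2.33 (SE 0.26, adjusted p = 8.5e-06). The ligand that fell was Ccl5 (RANTES), at 374 ± 266 CPM in moDC and 671 ± 275 CPM in cDC2 (log2 change -1.04, SE 0.18, adjusted p = 4.4e-04). Ccl3 and Ccl4, the macrophage inflammatory proteins, did not pass the pooled test (adjusted p = 0.31 and 0.73). Their log2 changes had opposite signs on the dates, 1.64 on 10.26.2015 and -0.44 on 01.05.2016 for Ccl3, and 1.55 on 10.26.2015 and below 0 on 01.05.2016 for Ccl4 (adjusted p of the difference between dates = 0.0092 and 0.019).

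Cytokine genes were split between moDC and cDC2. In the list, 10 of 22 tested members rose and 4 fell, with a median log2 change of 0.37. Each date on its own gave 6 rises and 2 falls on 10.26.2015, and 6 and 4 on 01.05.2016. Il1rn, the natural antagonist of interleukin 1, ranged from 42.9 to 87.4 CPM in moDC (median 56.6), against 5.53 to 15 CPM in cDC2 (median 10.4; log2 change 2.62, SE 0.17, adjusted p = 5.5e-10), and Il1b averaged 2563 ± 1917 CPM in moDC and 1838 ± 1675 CPM in cDC2 (log2 change 0.70, SE 0.14, adjusted p = 9.5e-04). Ltb, the membrane partner of lymphotoxin alpha, averaged 403 ± 103 CPM in moDC and 787 ± 351 CPM in cDC2 (log2 change -0.89, SE 0.13, adjusted p = 1.6e-05), and Tnf 30.9 ± 18 CPM in moDC and 55.9 ± 9.01 CPM in cDC2 (log2 change -1.02, SE 0.22, adjusted p = 0.0026). Osm (log2 change 4.30, SE 0.93, adjusted p = 0.0063), Csf1 (log2 change 3.75, SE 0.87, adjusted p = 0.0087) and Il6 were far higher in the moDC libraries of 10.26.2015 than in those of 01.05.2016. Osm was 832, 375 and 295 CPM in moDC libraries 1 to 3 and 30.6, 16.4 and 29.1 CPM in libraries 4 to 6, against 4.95 to 6.41 CPM in cDC2. Il6 was 225, 114 and 117 CPM in moDC libraries 1 to 3 and 1.95, 0.625 and 3.31 CPM in libraries 4 to 6, against 1.26 to 4.98 CPM in cDC2. Its pooled call (log2 change 3.37, SE 1.12, adjusted p = 0.047) was lost without any 1 of 9 of the 12 libraries, with adjusted p up to 0.14. Among the receptors for cytokines and growth factors, 19 of 34 tested members rose and 4 fell, with a median log2 change of 0.47. Csf3r, the receptor for granulocyte colony-stimulating factor, rose by 2.82 (SE 0.16, adjusted p = 5.3e-11), Il13ra1 by 2.25 (SE 0.11, adjusted p = 1.5e-11) and Il17ra by 1.15 (SE 0.14, adjusted p = 4.7e-06). Il12rb2 fell (log2 change -1.37, SE 0.18, adjusted p = 8.2e-06), as did Il21r (log2 change -0.89, SE 0.10, adjusted p = 8.0e-07) and Il1r2, the decoy receptor (log2 change -1.16, SE 0.18, adjusted p = 4.9e-05).

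Adhesion genes rose more often than they fell. In the list, 16 of 31 tested members rose and 5 fell, with a median log2 change of 0.51. Fitted alone, 10.26.2015 gave 13 rises and 3 falls, and 01.05.2016 gave 10 and 5. Itgal (LFA-1) ranged from 188 to 258 CPM in moDC (median 221), against 36.9 to 108 CPM in cDC2 (median 73.5; log2 change 1.71, SE 0.22, adjusted p = 5.4e-05), with changes of 2.36 on 10.26.2015 and 1.07 on 01.05.2016. Itgam (CD11b) averaged 178 ± 60.8 CPM in moDC and 85.9 ± 48.1 CPM in cDC2 (log2 change 1.19, SE 0.13, adjusted p = 7.1e-07), and Cd44, the hyaluronan receptor, 242 ± 23.8 CPM in moDC and 83.1 ± 22.6 CPM in cDC2 (log2 change 1.58, SE 0.13, adjusted p = 1.5e-08). Pecam1 fell (log2 change -0.78, SE 0.12, adjusted p = 4.9e-05), as did Jaml (log2 change -0.58, SE 0.10, adjusted p = 1.9e-04).

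Genes of uptake and digestion rose more often than they fell. Of the phagocytosis receptors, 15 of 24 tested members rose and 1 fell, with a median log2 change of 0.75. Cd36, a scavenger receptor for oxidised lipids, ranged from 45.3 to 134 CPM in moDC (median 71.3), against 0.0622 to 2.65 CPM in cDC2 (median 1.09; log2 change 5.90, SE 0.61, adjusted p = 4.9e-05), Msr1 from 18.6 to 33.5 CPM in moDC (median 20.5), against 0.138 to 1.55 CPM in cDC2 (median 1.21; log2 change 4.37, SE 0.31, adjusted p = 4.0e-09) and Lrp1 from 89.5 to 155 CPM in moDC (median 117), against 10.8 to 34.7 CPM in cDC2 (median 23.8; log2 change 2.47, SE 0.13, adjusted p = 2.9e-11). Every moDC library exceeded every cDC2 library for these 3. Cd300lb rose by 3.31 (SE 0.15, adjusted p = 3.6e-12), whereas Cd300lf, an inhibitory member of the same family, fell (log2 change -1.58, SE 0.11, adjusted p = 2.8e-09). Of the lysosome list, 16 of 31 tested members rose and 3 fell, with a median log2 change of 0.74. Psap, the precursor of saposins, ranged from 1376 to 4258 CPM in moDC (median 2507), against 446 to 665 CPM in cDC2 (median 519; log2 change 2.16, SE 0.15, adjusted p = 4.2e-09) and Cst3 (cystatin C) rose by 1.59 (SE 0.16, adjusted p = 9.7e-07), Lamp1 by 1.15 (SE 0.10, adjusted p = 1.9e-08) and Npc2 by 1.40 (SE 0.10, adjusted p = 1.4e-09). Acp5 fell (log2 change -0.52, SE 0.10, adjusted p = 6.3e-04). Of the phagocyte oxidase and antimicrobial genes, 17 of 26 tested members rose and 2 fell, with a median log2 change of 0.69. Cybb, the catalytic subunit of the oxidase, averaged 874 ± 103 CPM in moDC and 293 ± 48.8 CPM in cDC2 (log2 change 1.59, SE 0.09, adjusted p = 5.3e-11). Mpeg1, a pore-forming protein of phagosomes, rose by 3.17 (SE 0.41, adjusted p = 2.1e-04), and Slc11a1 (Nramp1), which pumps metal ions out of the phagosome, by 3.01 (SE 0.33, adjusted p = 3.1e-05).

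Lipid and iron genes rose more often than they fell. In the lipid list, 18 of 34 tested members rose and 1 fell, with a median log2 change of 0.44. Beside Fabp4 and Apoc2, Apoe rose by 2.26 (SE 0.16, adjusted p = 1.0e-08), Plin2, the coat of lipid droplets, by 3.21 (SE 0.26, adjusted p = 8.2e-07), Abca1, which exports cholesterol, by 2.04 (SE 0.37, adjusted p = 3.4e-04) and Nr1h3 (LXR alpha), which drives Abca1, by 1.94 (SE 0.20, adjusted p = 3.9e-07). The single member that fell was Srebf2, the activator of sterol synthesis (log2 change -0.64, SE 0.09, adjusted p = 2.4e-05). In the iron list, 10 of 19 tested members rose and 2 fell, with a median log2 change of 0.38. Ftl1 and Fth1, the ferritin chains, rose by 0.86 (SE 0.11, adjusted p = 5.6e-06) and 0.65 (SE 0.10, adjusted p = 5.9e-05), and Tfrc, the receptor for iron uptake, fell (log2 change -0.71, SE 0.12, adjusted p = 1.1e-04).

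Type I interferon-stimulated genes, the subject of the series title, rose more often than they fell in moDC. Of them, 30 of 56 tested members rose and 4 fell, with a median log2 change of 0.37. The libraries of 10.26.2015 alone gave 18 rises and 1 fall, and those of 01.05.2016 alone 16 and 4. Without scaling factors 12 rose and 9 fell. Ifi204 ranged from 33.1 to 93.6 CPM in moDC (median 53), against 3.83 to 16.1 CPM in cDC2 (median 7.23; log2 change 2.83, SE 0.20, adjusted p = 7.4e-09), Ifi205 from 12.3 to 61.2 CPM in moDC (median 25.7), against 0.124 to 6.89 CPM in cDC2 (median 1.98; log2 change 3.56, SE 0.55, adjusted p = 5.7e-04) and Slfn1 from 11.2 to 25.1 CPM in moDC (median 15.4), against 1.07 to 7.6 CPM in cDC2 (median 1.39; log2 change 2.72, SE 0.42, adjusted p = 1.6e-04). These are PYHIN and Schlafen family genes, and none overlapped between moDC and cDC2. Ifitm3, which blocks viral entry, averaged 4698 ± 4479 CPM in moDC and 996 ± 636 CPM in cDC2 (log2 change 1.74, SE 0.27, adjusted p = 4.4e-04). Stat2, part of the factor that drives the response, fell (log2 change -0.55, SE 0.10, adjusted p = 4.1e-04), as did Usp18, which damps it (log2 change -0.44, SE 0.11, adjusted p = 0.0058). Irf7 averaged 161 CPM in moDC and 128 CPM in cDC2 and Ifit3 79.2 CPM in moDC and 98 CPM in cDC2, and neither passed the test (adjusted p = 0.05, which lies just above the threshold before rounding, and 0.37).

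Cell cycle genes fell more often than they rose in moDC. In the list, 1 of 35 tested members rose and 25 fell, with a median log2 change of -0.52. Within 10.26.2015 there were 1 rise and 26 falls, and within 01.05.2016 1 and 5. Over all genes, 1080 fell on 10.26.2015 and 1344 on 01.05.2016 with each date fitted alone. The share of cell cycle genes that fell was thus far above that of all genes on 10.26.2015 only, and near it on 01.05.2016. The median log2 change of the list was -0.72 on 10.26.2015 and -0.30 on 01.05.2016. Ccnd2 ranged from 49.6 to 81 CPM in moDC (median 61.2), against 117 to 157 CPM in cDC2 (median 128; log2 change -1.10, SE 0.10, adjusted p = 5.6e-08) and Ccnd1 from 110 to 366 CPM in moDC (median 212), against 352 to 759 CPM in cDC2 (median 505; log2 change -1.24, SE 0.29, adjusted p = 0.0069), while Ccnd3, another cyclin D, rose by 0.52 (SE 0.09, adjusted p = 9.7e-05). Mki67, the proliferation antigen, averaged 48.4 ± 16.2 CPM in moDC and 83.6 ± 16.2 CPM in cDC2 (log2 change -0.82, SE 0.15, adjusted p = 5.0e-04), Tyms, of thymidylate synthesis, 31.8 ± 17.1 CPM in moDC and 65.6 ± 49.9 CPM in cDC2 (log2 change -0.84, SE 0.19, adjusted p = 0.0023), and Top2a 46.8 ± 10.3 CPM in moDC and 68.3 ± 13.6 CPM in cDC2 (log2 change -0.52, SE 0.14, adjusted p = 0.0066). With all 47 NOD and B6g7 libraries in 1 fit, 1 rose and 11 fell.

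Of the immediate early genes, which respond to handling as well as to signals, 4 of 28 tested members rose and 9 fell, with a median log2 change of -0.21. Egr3 ranged from 11.9 to 21.5 CPM in moDC (median 17.7), against 27.2 to 78 CPM in cDC2 (median 48; log2 change -1.50, SE 0.21, adjusted p = 3.0e-05), and Nr4a3 (log2 change -1.47, SE 0.18, adjusted p = 6.6e-06) and Nr4a2 (log2 change -1.41, SE 0.17, adjusted p = 2.3e-06) fell. Fos averaged 3051 CPM in moDC and 3928 CPM in cDC2 and Dusp1 1731 CPM in moDC and 1705 CPM in cDC2, and neither passed the test (adjusted p = 0.3 and 0.63). In glycolysis, 13 of 26 tested members rose and 3 fell, with a median log2 change of 0.33. Hk3 and Aldoa rose by 2.35 (SE 0.20, adjusted p = 2.6e-08) and 1.06 (SE 0.10, adjusted p = 1.7e-07), and Slc2a3, the neuronal glucose transporter Glut3, fell (log2 change -1.27, SE 0.13, adjusted p = 2.6e-07). In the Notch and lymphotoxin list, 8 of 22 tested members rose and 6 fell, with a median log2 change of 0.18 (-0.07 without scaling factors), and Hes1, a Notch target, rose by 0.76 (SE 0.13, adjusted p = 9.6e-05) where Dtx1 fell.

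Markers of other cell types were measured in both sorts. The 15 cDC1 markers, of which Irf8, Id2, Clec9a, Cd36 and 5 others also stand in other lists, summed to 1171 to 1205 CPM in the moDC libraries of 10.26.2015, 908 to 1077 CPM in those of 01.05.2016 and 1164 to 1553 CPM in cDC2, and in that list 7 of 15 tested members rose and 4 fell, with a median log2 change of 0.99. Clec9a, the cDC1 receptor for dead cells, ranged from 12.5 to 34.6 CPM in moDC (median 16.9), against 0.311 to 3.39 CPM in cDC2 (median 1.57; log2 change 3.64, SE 0.38, adjusted p = 3.1e-06), whereas Wdfy4, needed by cDC1 for cross-presentation, fell (log2 change -1.16, SE 0.10, adjusted p = 3.7e-08), and Xcr1, the defining chemokine receptor, averaged 7.68 CPM in moDC and 5.54 CPM in cDC2 without passing the test (adjusted p = 0.17). The pDC markers summed to 630 to 743 CPM in the moDC libraries of 10.26.2015, 366 to 403 CPM in those of 01.05.2016 and 355 to 511 CPM in cDC2, and 3 of 11 tested members rose and 1 fell, with a median log2 change of 0.16 (-0.09 without scaling factors). Plasma cell genes summed to 505 to 2460 CPM in the moDC libraries of 10.26.2015, 359 to 628 CPM in those of 01.05.2016 and 207 to 256 CPM in cDC2. In that list 7 of 8 tested members rose and 1 fell, with a median log2 change of 2.97, and Jchain, the joining chain of antibodies, was 1975 CPM in moDC library 1 and 29.6 to 278 CPM in the other 5 moDC libraries, against 0.187 to 34.5 CPM in cDC2. The NK cell genes summed to 223 to 243 CPM in the moDC libraries of 10.26.2015, 132 to 204 CPM in those of 01.05.2016 and 28.5 to 66.4 CPM in cDC2 (3 of 6 rose, 0 fell). Among them Klrk1 (NKG2D) averaged 163 ± 25.8 CPM in moDC and 40.5 ± 10.3 CPM in cDC2 (log2 change 2.04, SE 0.14, adjusted p = 1.1e-09). Neutrophil genes summed to 19.2 to 257 CPM in the moDC libraries of 10.26.2015, 24.4 to 43.5 CPM in those of 01.05.2016 and 23.1 to 131 CPM in cDC2 (2 of 5 rose, 1 fell), with 257 CPM in moDC library 1 and Mpo at 0 in all cDC2 libraries. B cell markers summed to 186 to 426 CPM in the moDC libraries of 10.26.2015, 228 to 342 CPM in those of 01.05.2016 and 247 to 450 CPM in cDC2 (4 of 11 rose, 2 fell). T cell markers summed to 23.2 to 90.7 CPM in the moDC libraries of 10.26.2015, 25.1 to 50.5 CPM in those of 01.05.2016 and 54 to 145 CPM in cDC2 (1 of 9 rose, 2 fell). Red pulp macrophage genes summed to 729 to 1450 CPM in the moDC libraries of 10.26.2015, 903 to 1056 CPM in those of 01.05.2016 and 503 to 963 CPM in cDC2 (3 of 14 rose, 0 fell). Platelet genes summed to 50.8 to 56.9 CPM in the moDC libraries of 10.26.2015, 19.3 to 32.6 CPM in those of 01.05.2016 and 21.9 to 48.3 CPM in cDC2 (2 of 5 rose, 0 fell). Erythroid genes summed to 124 to 1686 CPM in the moDC libraries of 10.26.2015, 59.7 to 1288 CPM in those of 01.05.2016 and 128 to 2261 CPM in cDC2, and 0 of 11 tested genes passed the edgeR test, with 0 at an unadjusted p under 0.05, 0 called by DESeq2 and 0 by limma. The share that rose was 21.4% of red pulp macrophage genes, 27.3% of pDC genes and 11.1% of T cell genes, against 18.9% over all genes tested. The share that fell was 0%, 9.09% and 22.2%, against 12.9%. The part of the cell types of this paragraph in the gene results was not tested.

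Basophil genes, a list added after their values had been seen, stood out in the moDC libraries of 10.26.2015. The 9 genes summed to 301 to 1604 CPM in the moDC libraries of 10.26.2015, 3.7 to 87.7 CPM in those of 01.05.2016 and 7.08 to 10.6 CPM in cDC2 (6 of 9 rose, 0 fell). Cpa3, a mast cell and basophil protease, was 105, 29.4 and 32.6 CPM in moDC libraries 1 to 3 and 5.09, 0 and 1.07 CPM in libraries 4 to 6, against 0 to 0.124 CPM in cDC2. Ms4a2, the beta chain of the IgE receptor, was 63.4, 28.2 and 24.9 CPM in moDC libraries 1 to 3 and 0.0521 to 4.27 CPM in libraries 4 to 6, against 0 to 0.747 CPM in cDC2. Mcpt8, the basophil protease, reached 481 CPM in moDC library 1 and was at 0 in moDC library 5 and in all cDC2 libraries. Gata2, the basophil transcription factor, and Il4 followed the same libraries, with 63.6 and 47 CPM in moDC library 1. Fcer1a, Mcpt8 and Prss34 had no count in cDC2. Osm, Il6 and Csf1 were high in the same 3 moDC libraries as these genes, and the part of basophil RNA in those 3 cytokine results was not tested. Ccr2, Cx3cr1, Ace and S1pr5 were above every cDC2 library in all 6 moDC libraries, and so was Osm. Ccr2 and S1pr5 were named because they showed no overlap.

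**Figure D4:**
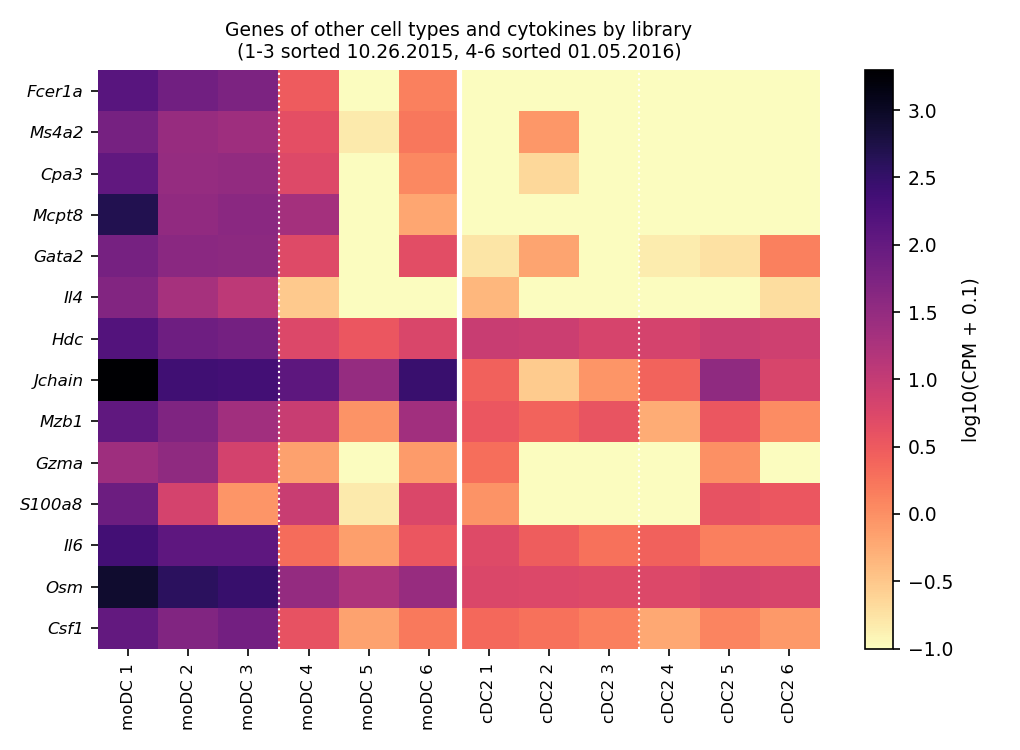
Level of 14 genes as log10(CPM + 0.1), by colour, in each library, moDC 1 to 6 on the left and cDC2 1 to 6 on the right. The 7 basophil genes from Fcer1a to Hdc, and Il6, Osm and Csf1, are highest in moDC libraries 1 to 3, all sorted on 10.26.2015.

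Set side by side, the 2 dates gave the same direction for most changes. In a fit with 1 mean for each cell type and date, 2142 genes (17.8%) rose and 1488 (12.4%) fell in moDC on 10.26.2015, and 1244 (10.4%) rose and 850 (7.07%) fell on 01.05.2016. Of these, 1493 genes passed on both dates, and 11 of the 1493 changed in opposite directions. The change itself differed between the dates for 166 genes (1.38%), 128 with a larger log2 value on 10.26.2015 and 38 with a smaller one. Among the named genes this was so, for example, for C3 (6.82 on 10.26.2015 and 3.54 on 01.05.2016), Ccl6 (5.32 on 10.26.2015 and 3.78 on 01.05.2016), Psap (1.68 on 10.26.2015 and 2.64 on 01.05.2016) and Itgal, and for Ifitm3 (2.46 on 10.26.2015 and 1.01 on 01.05.2016). The numbers of sorted cells were lower on 10.26.2015, 1091 to 2000 in moDC and 2000 in cDC2, against 3017 to 3292 in moDC and 5000 in cDC2 on 01.05.2016, and cannot be told apart from the date.

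**Figure D5:**
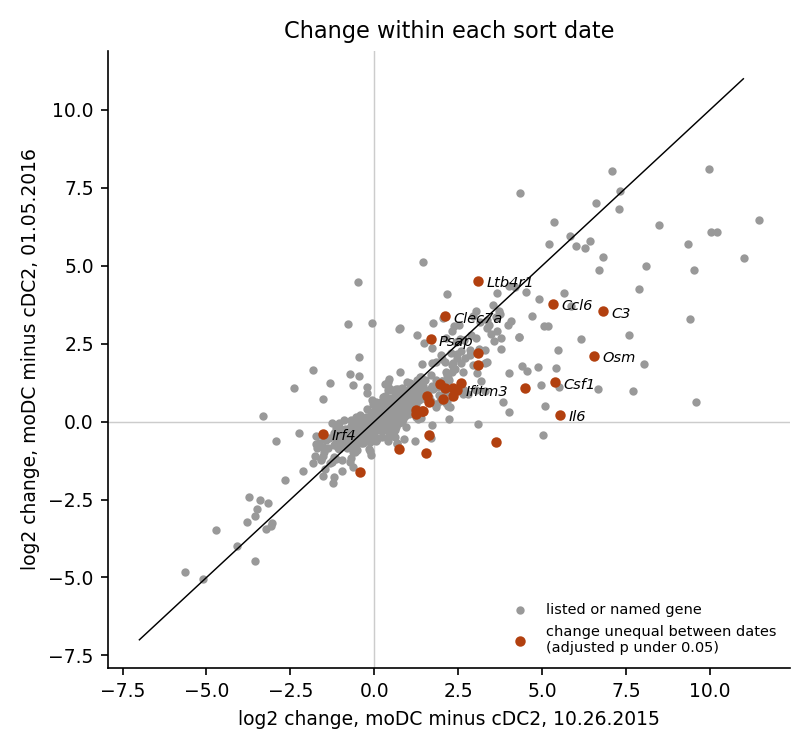
Log2 change of moDC minus cDC2 on 10.26.2015 (horizontal) and 01.05.2016 (vertical) for 695 listed or named genes, with the line of equal change and, in orange, the 30 genes whose change was unequal between the dates. Osm, Il6 and Csf1 lie far to the right of the line and Clec7a and Ltb4r1 above it; 7 genes at or near 0 in a group lie outside the axes.

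The same contrast exists in NOD, the diabetes-prone strain, with 5 moDC and 6 cDC2 libraries sorted on the same dates, and the difference between the 2 strains' contrasts was tested in 1 model. Of 12882 genes, 655 (5.08%) passed, 275 with a more positive and 380 with a more negative moDC minus cDC2 change in NOD. This balance depended on the processing, with 310 more positive and 282 more negative without scaling factors, and 397 and 379 among the libraries of 01.05.2016 alone. Clec4a4 was the marker that differed over both dates. It averaged 48.9 ± 19.9 CPM in moDC and 324 ± 141 CPM in cDC2 of NOD, against 135 ± 51.4 CPM in moDC and 341 ± 203 CPM in cDC2 of B6g7. The NOD minus B6g7 difference of its log2 change was -1.41 (SE 0.19, adjusted p = 5.9e-05), and -1.68 (adjusted p = 0.0034) among the libraries of 01.05.2016 alone. Csf1r differed by 0.51 (SE 0.19, adjusted p = 0.12) and Ly6c2 by -0.06 (SE 1.09, adjusted p = 0.99), and neither passed over both dates. Among the libraries of 01.05.2016 alone Csf1r did pass, with a difference of 0.91 (adjusted p = 0.036), and Ly6c2 did not (1.22, adjusted p = 0.73). Ceacam2, a cell adhesion molecule, averaged 75.3 ± 44.9 CPM in moDC and 3.2 ± 1.18 CPM in cDC2 of NOD, against 0.129 ± 0.127 CPM in moDC and 0.175 ± 0.173 CPM in cDC2 of B6g7, with a difference of 4.94 (SE 0.89, adjusted p = 0.0012). Timd4, a phosphatidylserine receptor, averaged 10.7 ± 4.41 CPM in moDC and 1.44 ± 0.584 CPM in cDC2 of NOD, against 1.64 ± 1.34 CPM in moDC and 2.76 ± 0.607 CPM in cDC2 of B6g7, with a difference of 3.66 (SE 0.66, adjusted p = 8.7e-04), and Serpinb8, a protease inhibitor, and Tmem37 differed by 4.21 (SE 0.81, adjusted p = 0.0019) and 3.33 (SE 0.97, adjusted p = 0.05), the p of Tmem37 lying just under the threshold before rounding. In the other direction G0s2 averaged 29 ± 44.4 CPM in moDC and 19.7 ± 26.4 CPM in cDC2 of NOD, against 48.6 ± 46.6 CPM in moDC and 0.0535 ± 0.0939 CPM in cDC2 of B6g7, with a difference of -8.33 (SE 1.27, adjusted p = 5.4e-04). Cpa3, Il4 and Cyp11a1, a steroid-synthesising enzyme, differed by -11.22 (SE 2.31, adjusted p = 0.0073), -7.77 (SE 2.21, adjusted p = 0.039) and -8.63 (SE 2.02, adjusted p = 0.017), and Fcer1a averaged 0.549 ± 1.17 CPM in moDC and 0.439 ± 0.516 CPM in cDC2 of NOD, against 45.4 ± 55.4 CPM in moDC and no count in cDC2 of B6g7 (adjusted p of the difference = 0.018). S1pr5, also without a count in cDC2 of B6g7, averaged 29 ± 11.1 CPM in moDC and 0.541 ± 0.447 CPM in cDC2 of NOD, against 57.5 ± 16.9 CPM in moDC of B6g7 (adjusted p of the difference = 0.016, and 0.34 among the libraries of 01.05.2016 alone). Among the libraries of 01.05.2016 alone Cpa3, Cyp11a1, G0s2 and Tmem37 did not pass (adjusted p = 0.25, 0.053, 0.14 and 0.2). Fcer1a and Il4 were too low there to be tested, so their strain differences rest on the libraries of 10.26.2015. The moDC libraries of NOD on that date were libraries 1 and 2 only, from 537 and 1319 cells. Cpa3, Il4 and Fcer1a belong to the basophil list, whose summed level was highest in the B6g7 moDC libraries of 10.26.2015. The part of basophil RNA in their strain differences was not tested. CPM in this paragraph were scaled over the 23 libraries of both strains.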

How the data were processed

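Total RNA of sorted spleen cells was made into cDNA with SMART-seq v4, amplified over 14 PCR cycles and sequenced on a NextSeq instrument, per the labels' protocols. The authors deposited expected counts per transcript, which RSEM estimates and which divide reads shared between similar transcripts. The submitters' processing notes name RSEM and limma without versions. The aligner and the genome build of the authors were not given in the sources used here. Of the entries above 0, 53.8% were fractional. The 35070 transcripts were summed to 24472 genes by accession, 34710 named from RefSeq, 114 from the authors' table of names and 246 left unnamed, and rounded. Genes with a CPM (counts scaled to library size) of at least 1 in at least 3 of 12 libraries were tested with edgeR 4.0.16 in R 4.3.3 (TMM scaling, robust quasi-likelihood, cell type and sort date as terms, Benjamini-Hochberg adjusted p-value under 0.05). The log2 changes and p-values were computed here from the deposited counts and none was taken from the authors. CPM are not per length, so levels are compared within a gene and not between genes.

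The standard error is the size of the log2 change divided by the square root of F. In simulated libraries of the same size, with 11758 genes tested, 49%, 78%, 90% and 100% of genes changed 1.5, 2, 4 and 8 fold were called. The simulation had no date effect and changed only 49 or 50 genes at each size, so these are not the detection rates of the measured comparison. A gene without counts in a group was set against a limit of 3 counts over the group, and such limits cover counting error only. The alternatives were DESeq2 1.42.0, limma 3.58.1, other scaling and filters, no date term, each date alone, all 47 NOD and B6g7 libraries, no libraries of RNA integrity under 8, each library left out, unrounded counts and a block for the replicate number. A fit with a mean for each cell type and date, and the test between dates, were added after the libraries had been seen to separate by date.

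The genes named are the 3 markers, the 12 largest rises and falls without overlap and with a mean of at least 10 CPM in the higher group, up to 4 rises and falls per gene list with at least 5 CPM, other list members that complete the account of a list, and the 5 largest strain differences in each direction. Some genes that this rule names are not reported here. The members and gene lists were chosen with earlier results of these data known. The basophil list was added after its values were seen. The strain difference was fitted over 23 libraries with the date within each cell type; 1 of the 5 most positive is a transcript without a gene name and is not described.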

Additional observations from a re-analysis of the deposited data

Results flagged for a closer look

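Of 208 named genes checked, 60 with counts in all 4 groups had a moDC minus cDC2 log2 change that differed between NOD and B6g7, by the edgeR test of the difference. Over all 12882 genes tested, 655 (5.08%) passed that test. Genes named for their large strain difference are among the 60, so the shares cannot be compared. The values below are NOD minus B6g7 over both dates unless 01.05.2016 is named, with the adjusted p in brackets. Among the genes more positive in NOD, the difference was 2.25 for Tcf7 (0.0014), 0.76 for Treml4 (0.022), 0.77 for Id2 (5.6e-04), 0.35 for Vsir (0.031), 1.05 for Clec12a (0.011) and 2.41 for Fcgr1 (5.6e-04). A second set had 0.96 for Pira2 (1.1e-04), 1.73 for C1qa (0.031), 1.60 for C1qb (0.045), 1.79 for C1qc (0.023), 1.56 for Ms4a6d (0.0078) and 0.86 for Ms4a4c (0.0045). Further values were 1.05 for Il1rn (0.0019), 0.43 for Jaml (0.03), 1.18 for Lrp1 (0.0033), 0.92 for Psap (1.9e-04), 2.90 for Cybb (1.4e-05) and 1.59 for Apoe (0.022). Then came 1.67 for Nr1h3 (0.0036), 0.82 for Irf7 (0.011), 0.80 for Ccnd2 (0.031), 1.94 for Xcr1 (0.0026) and 4.94 for Ceacam2 (0.0012). It was also 3.66 for Timd4 (8.7e-04), 4.21 for Serpinb8 (0.0019) and 3.33 for Tmem37 (0.05). Among the libraries of 01.05.2016 alone not all of these genes passed. Tcf7 (adjusted p = 0.11), C1qa (0.14), C1qb (0.16) and C1qc (0.085) were among those that did not. Cybb (1.0e-04), Fcgr1 (1.1e-04) and Lrp1 (0.0017) were among those that did.

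Among the genes more negative in NOD, the difference was -1.41 for Clec4a4 (5.9e-05), -0.88 for Flt3 (6.0e-04), -0.72 for Relb (9.8e-05), -0.83 for Itgax (1.1e-04), -5.49 for Clec4e (0.0062) and -4.59 for Alox5 (0.021). A second set had -8.33 for G0s2 (5.4e-04), -0.85 for Kit (3.5e-04), -1.08 for Esam (0.0032), -1.32 for Tbx21 (0.023), -1.09 for Cd7 (1.4e-04) and -0.97 for Cd4 (1.9e-04). Further values were -0.42 for Zbtb46 (0.037), -1.31 for Egr2 (4.8e-04), -1.02 for H2-Oa (6.9e-05), -0.38 for Ciita (0.024), -1.94 for Clec10a (0.0051) and -0.47 for Gpr183 (0.043). Then came -2.74 for Osm (0.02), -4.96 for Il6 (8.1e-04), -2.79 for Cd36 (0.046), -0.72 for Cd300lf (0.036), -1.20 for Tfrc (5.6e-06) and -1.91 for Ifi204 (3.1e-04). It was also -0.73 for Usp18 (0.0068), -1.61 for Ccnd1 (0.013), -1.43 for Nr4a3 (0.019), -0.81 for Slc2a3 (0.0092), -1.10 for Klrk1 (1.8e-04) and -11.22 for Cpa3 (0.0073). Others had -6.30 for Ms4a2 (0.048), -6.75 for Gata2 (0.032), -7.77 for Il4 (0.039) and -8.63 for Cyp11a1 (0.017). Cpa3, Ms4a2, Gata2 and Il4 belong to the basophil list. Among the libraries of 01.05.2016 alone the difference was -1.32 for Clec4e (adjusted p = 0.61), -2.11 for Alox5 (0.095) and -1.45 for Cd36 (0.43). None of these passed there, and neither did Clec10a (0.17), Ccnd1 (0.14), Il6 (0.11) and Gata2 (0.17). Relb (3.0e-04), H2-Oa (7.5e-05) and Tfrc (2.7e-04) were among the genes that did pass there. Genes near 0 CPM in a group, such as Cpa3, Il4 and Cyp11a1, have fitted values that depend on the prior count. S1pr5 (adjusted p = 0.016) and Fcer1a (0.018) also passed, and no size is given because cDC2 of B6g7 had no count.

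A cut was used to flag a single library apart from the other 5 of its group. It flags about 1 in 20 groups of values drawn from 1 normal distribution, but the groups here span 2 sort dates, so that rate is only a guide. The cut flagged 26 of 416 groups of 6 checked. In moDC these were Bmp2 with 4.38 CPM in library 3 (next below 1.49), Tmem132c with 4.69 CPM in library 5 (next below 1.75) and C1qa with 124 CPM in library 1 (next below 65.7). Also in moDC these were C1qc with 239 CPM in library 1 (next below 104), Slfn1 with 25.1 CPM in library 1 (next below 16.3), Jchain with 1975 CPM in library 1 (next below 278) and Cpa3 with 105 CPM in library 1 (next below 32.6). Further in moDC these were Mcpt8 with 481 CPM in library 1 (next below 38.9), Prss34 with 473 CPM in library 1 (next below 41.8) and Tmem37 with 11 CPM in library 1 (next below 4.11). In cDC2 these were Lyz1 with 5.48 CPM in library 3 (next below 2.12), Galnt9 with 0.337 CPM in library 5 (next below 0.0454), Ccl17 with 0.311 CPM in library 2 (next below 0) and Lyz2 with 658 CPM in library 3 (next below 276). Also in cDC2 these were Fcgr4 with 32.8 CPM in library 3 (next below 19.8), Tnf with 73 CPM in library 2 (next below 55.8), Msr1 with 0.138 CPM in library 1 (next above 1.14) and Mpeg1 with 11.6 CPM in library 4 (next above 15.6). Further in cDC2 these were Ifi204 with 16.1 CPM in library 1 (next below 8.22), Ifi205 with 6.89 CPM in library 3 (next below 2.07), Slfn1 with 7.6 CPM in library 1 (next below 2.78) and Jchain with 34.5 CPM in library 5 (next below 6.01). Again in cDC2 these were Cpa3 with 0.124 CPM in library 2 (next below 0), Ms4a2 with 0.747 CPM in library 2 (next below 0), Il4 with 0.346 CPM in library 1 (next below 0.0969) and Cyp11a1 with 0.0969 CPM in library 6 (next below 0). The values of Cpa3 and Cyp11a1 lie below 3 counts, which are 0.187 CPM in cDC2 library 2 and 0.145 CPM in library 6.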

How the results depend on the processing

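Against 3820 genes called with all libraries, leaving out each library in turn gave 3282 to 3773 (1925 to 2178 higher, 1334 to 1595 lower). Leaving out the sort date term gave 1110 genes, 702 higher and 408 lower. Without scaling factors 1367 were higher and 3645 lower, so the share of higher calls was 27.3%, against 59.3% with scaling. DESeq2 scaling, other tests, filters, single dates and the sets of libraries gave counts within 1.5 times of the main ones (3820 in all, 2266 higher, 1554 lower). Their totals ran from 2801 to 4999 genes. For the strain difference, 655 genes became 50 without the date term (21 higher, 29 lower), and leaving out each B6g7 library gave 502 to 693 (201 to 273 higher, 301 to 420 lower). Its share of higher calls was 52.4% without scaling factors (310 and 282 lower) and 51.2% on 01.05.2016 alone (397 and 379 lower), against 42% with scaling and both dates. The cause of these changes was not tested.

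The replicate numbers were not taken to pair the libraries, since not every same-numbered pair correlated in its deviations from the mean of cell type and date. The correlation was 0.039, -0.109 and -0.088 for numbers 1 to 3 and 0.283, 0.299 and 0.226 for numbers 4 to 6. On 01.05.2016 the other pairs were at -0.174 to -0.058, so among the pairs of that date each library correlated best with its own number, a hint from the data and not from the labels. With the replicate number as a block, moDC against cDC2 gave 3438 genes, and the strain difference 402 (161 higher, 241 lower). Under that block H2-Ab1 (adjusted p = 0.084), Cd74 (0.12), Csf1 (0.059) and Il6 (0.14) were no longer called.

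Of 5369 combinations of a named gene with an alternative, 5207 kept direction and call. On 01.05.2016 alone Notch2 had a log2 change of -0.38 and Ccl4 one of -1.02, both opposite to the pooled sign, and on 10.26.2015 alone Cd74 had -0.01. H2-Ab1, Cd74 and Il6 each lost the call without any 1 of 9 libraries and Jchain without any 1 of 4. The labels tie no library to an animal, and 49% of 1.5-fold changes were detected with 6 libraries a group in a simulation without a date effect. A gene that missed the threshold is not shown to be equal. The RNA integrity of 3.9 in cDC2 library 6 falls on the later date.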
